A study of Mus musculus with 32 samples.

Results

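The genes described here are 8 receptors through which APOE, the main lipid carrier of the brain, binds cells or is sorted inside them: Lrp1, Lrp1b, Lrp4, Lrp8, Vldlr, Sorl1, Sort1 and Scarb1. They were taken by name from a table of 57010 genes, each had 1 entry, and 8 of 8 had enough counts to be tested among 20298 genes. RNA was sequenced from the brains of 32 humanized mice that carry human APOE4 on both alleles (E4/4) or human APOE3 on both alleles (E3/3) in place of mouse Apoe. Each genotype received D4F, a peptide built to mimic the main protein of high-density lipoprotein (HDL), or phosphate-buffered saline (PBS), daily for 12 weeks, between about 10.5 and 13.2 months of age. This gave 8 groups of 4 mice, females and males of E4/4 D4F, E4/4 PBS, E3/3 D4F and E3/3 PBS, so that every mouse carried human APOE in place of the mouse gene. The mouse Apoe entry held 32 to 141 counts in any library. The strain, the promoter that drives human APOE and the brain region taken were not stated in the labels.

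Receptors of the low-density lipoprotein (LDL) receptor family are membrane proteins that bind lipoproteins and many other ligands through clusters of cysteine-rich repeats and carry them into the cell. In the brain, LRP1 is a main route of APOE and amyloid-beta uptake into neurons, glia and vessel cells, and LRP1B is its large, more slowly internalised relative. LRP8 (also called ApoER2) and VLDLR pass the signal of reelin, which guides neuronal migration and tunes adult synapses, and LRP4 is the receptor for agrin at the neuromuscular junction and is also made in the brain. The name of the family covers only some of the 8 genes. SORL1 joins LDL receptor repeats to the VPS10 domain of the sorting receptors and routes amyloid precursor protein back from endosomes. SORT1 (sortilin) is a VPS10 receptor with no LDL receptor repeats that takes up APOE-bound lipid and progranulin. SCARB1 is a scavenger receptor of the CD36 family that draws cholesterol esters from HDL.

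The genes lie on 7 chromosomes in GRCm38, the build of the count table. Lrp1 spans chromosome 10, 127538161 to 127621148, and Lrp1b spans chromosome 2, 40595246 to 42653624, both on the minus strand. Lrp8 lies on chromosome 4, 107802261 to 107876840, and Vldlr on chromosome 19, 27216484 to 27254231, both on the plus strand. Lrp4 lies on chromosome 2, 91457511 to 91513779, on the plus strand. Sorl1 spans chromosome 9, 41964720 to 42124297 (minus strand), Sort1 chromosome 3, 108284082 to 108361511 (plus strand), and Scarb1 chromosome 5, 125277087 to 125341094 (minus strand). Their summed exons measured between 7569 bases (Sort1) and 23774 bases (Lrp1b). Antisense genes shared 185 exonic bases with Sorl1 (1.63% of its exons) and 338 with Sort1 (4.47%), and whether the counting used strand is not given in the sources used here.

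RefSeq promoter sequences of build GRCm38.p6 were held for 4 of the 8 genes, Lrp1, Lrp8, Sorl1 and Vldlr. The 250 bases before the start of the gene are shown for Lrp1 and Sorl1, whose transcripts varied together across the libraries, and for Vldlr, whose transcript varied in the opposite direction to Sorl1. Each runs 5′ to 3′ on the strand of its gene, and capitals mark the GC box GGGCGG or its reverse complement.
Lrp1 (chr10:127621149-127621398, minus strand): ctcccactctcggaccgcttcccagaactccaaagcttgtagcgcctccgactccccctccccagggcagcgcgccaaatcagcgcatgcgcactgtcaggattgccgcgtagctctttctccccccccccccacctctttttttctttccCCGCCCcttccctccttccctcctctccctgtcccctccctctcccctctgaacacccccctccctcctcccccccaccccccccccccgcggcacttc
Sorl1 (chr9:42124298-42124547, minus strand): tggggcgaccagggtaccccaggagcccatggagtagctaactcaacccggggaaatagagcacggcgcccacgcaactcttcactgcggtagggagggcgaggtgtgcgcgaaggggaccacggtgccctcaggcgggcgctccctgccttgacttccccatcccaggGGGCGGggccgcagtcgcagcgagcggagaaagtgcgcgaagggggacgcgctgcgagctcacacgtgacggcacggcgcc
Vldlr (chr19:27216234-27216483, plus strand): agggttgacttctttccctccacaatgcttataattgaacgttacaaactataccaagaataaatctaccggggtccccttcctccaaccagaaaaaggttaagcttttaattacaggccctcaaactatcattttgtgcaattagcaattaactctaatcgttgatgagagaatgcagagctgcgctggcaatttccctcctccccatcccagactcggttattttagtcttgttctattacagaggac
The Lrp1 stretch held 67.2% G and C and 13 CpG dinucleotides, and the Sorl1 stretch 69.6% and 26. The Vldlr stretch held 41.6% and 5, against a median of 52.4% and 6 over 32851 mouse promoters of the same length. A GC box, found in 32.7% of those promoters on either strand, occurred once each before Lrp1 and Sorl1 and not before Vldlr. A second annotated start of Vldlr, 536 bases downstream, was preceded by 250 bases with 66.4% G and C, 18 CpG dinucleotides and 1 GC box (chr19:27216770-27217019). The E-box CACGTG (6.02% of promoters) occurred in the Sorl1 stretch. The sterol regulatory element, and direct repeats of AGGTCA spaced by 4 bases (the LXR element) or by 1 base (the PPAR element), are held by 0.0731%, 0.0152% and 0.0335% of promoters on either strand. None of these 3 was found in the 8 annotated promoter stretches of the 4 genes.

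The libraries held 17.77 to 45.06 M counts (M, mega) and were split into a lower depth class of 11 libraries (up to 23.58 M) and a higher class of 21 (from 28.95 M). The lower class held 2 of 8 E4/4 D4F, 1 of 8 E4/4 PBS, 2 of 8 E3/3 D4F and 6 of 8 E3/3 PBS libraries, so depth and group run together in each comparison with E3/3 PBS. The numbers that name the libraries also split by genotype, with all E4/4 libraries numbered below all E3/3 libraries. What these numbers follow is not stated in the labels, so genotype and anything tied to them cannot be told apart. Markers of the labelled tissue were present: the 8 neuron markers summed to between 5735 and 9134 counts-per-million units (CPM) in every library and the astrocyte markers to between 2938 and 4986 CPM. Of the E4/4 PBS libraries, replicate 1 of the females stood apart: it was the only one of the lower depth class, and its neuron markers summed to 8647 CPM, against 5820 to 7020 CPM in the other 7. In bulk tissue, fewer cells of a type and less RNA per cell cannot be told apart.

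All 8 receptors were read at substantial depth, from 382 counts in the library with the fewest Lrp1b counts to 21288 in the library with the most Lrp1 counts. Divided by exon length, Sort1 was the most abundant, at 57.9 ± 9.81 CPM per kilobase (SD, n = 32 mice), above Lrp1 in 32 of 32 libraries. Lrp1 (25.4 ± 2.39) and Sorl1 (23.97 ± 4.96 CPM per kilobase) followed and were not separated, since Lrp1 was above Sorl1 in 20 of 32 libraries. The reelin receptors came next, with Lrp8 at 9.79 ± 1.36 and Vldlr at 8.04 ± 1.42 CPM per kilobase, and Lrp8 was the higher of the pair in 24 of 32 libraries. Lrp4 (3.85 ± 0.492) and Scarb1 (3.47 ± 0.413 CPM per kilobase) also overlapped, and Lrp1b was the least abundant at 1.21 ± 0.196 CPM per kilobase. The ranges over 32 libraries did not overlap between Sort1, the pair Lrp1 and Sorl1, the reelin receptors, the pair Lrp4 and Scarb1, and Lrp1b. The order held in each combination of genotype and treatment, except that Scarb1 averaged above Lrp4 in E3/3 D4F mice.

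**Figure D1:**
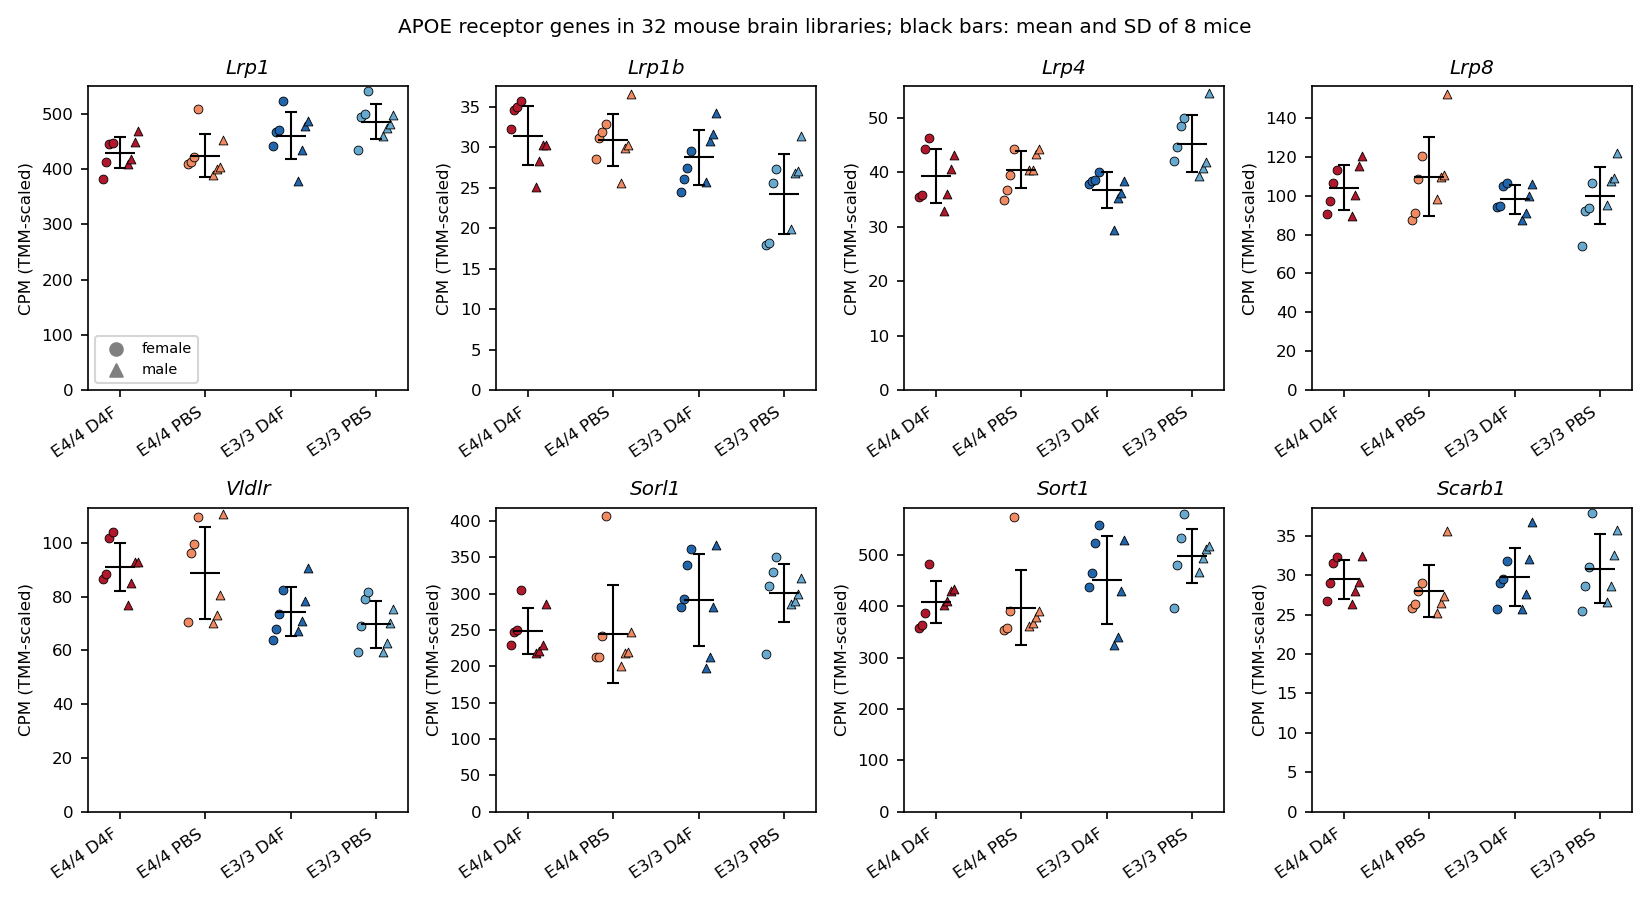
CPM (y axis, from 0) of each receptor gene in every mouse, by combination of genotype and treatment (x axis), with females as circles, males as triangles and bars for the mean and SD of 8 mice. The groups overlap in every panel, Vldlr and Lrp1b sit higher and Lrp1 and Sort1 lower in E4/4 PBS than in E3/3 PBS mice, and 1 E4/4 PBS female stands far above its group for Sorl1 (407 CPM) and Sort1 (574 CPM).

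The first comparison asked how receptor transcripts differ between E4/4 and E3/3 brains without the peptide. In E4/4 PBS mice, Vldlr and Lrp1b were each about 1.27-fold higher than in E3/3 PBS mice, and Sort1 and Lrp1 were lower, at 0.797-fold and 0.874-fold of the E3/3 PBS level. The other 4 receptors did not pass the test. Calls required a Benjamini-Hochberg adjusted p under 0.05 over all genes in edgeR's quasi-likelihood test. By that rule 2 of 8 receptors were higher, beside 9.89% of all genes, and 2 of 8 were lower, beside 10.5%, and 20.4% of all genes were called in either direction. The median log2 change was −0.15 over the 8 receptors and 0.02 over all genes. The groups of every receptor overlapped.

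Vldlr, the reelin receptor that also takes up APOE-rich particles, measured 70.6, 96.4, 109.6 and 99.4 CPM in the 4 E4/4 PBS females and 110.6, 70.3, 80.6 and 73.0 CPM in the 4 males. In E3/3 PBS mice it measured 81.6, 59.3, 69.2 and 79.1 CPM in females and 62.8, 75.4, 70.3 and 59.4 CPM in males. All 8 E4/4 PBS mice were above the E3/3 PBS median of 69.7 CPM, and 4 of 8 were above every E3/3 PBS mouse. The means were 88.8 ± 17.2 and 69.6 ± 8.65 CPM (SD, n = 8 each), and the log2 change was 0.35 (SE 0.0952, edgeR adjusted p = 0.00950). The log2 difference was 0.37 in females and 0.30 in males. Vldlr stayed called without any 1 of the 32 libraries in turn.

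Lrp1b, the large relative of LRP1, measured 28.6, 31.2, 31.9 and 32.9 CPM in E4/4 PBS females and 36.6, 25.5, 29.9 and 30.3 CPM in males. In E3/3 PBS mice it measured 18.2, 17.96, 25.6 and 27.3 CPM in females and 19.9, 27.02, 31.4 and 26.9 CPM in males. The 3 lowest E3/3 PBS mice lay below every E4/4 PBS mouse, and the remaining 5 lay within the E4/4 PBS range. The means were 30.9 ± 3.24 in E4/4 PBS and 24.3 ± 4.95 CPM in E3/3 PBS mice (SD, n = 8 each), and the log2 change was 0.35 (SE 0.0903, edgeR adjusted p = 0.00642). It stayed called without any 1 library in turn. Among libraries of the higher depth class, the log2 difference was 0.09, between 7 E4/4 PBS and 2 E3/3 PBS libraries.

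Sort1, the sortilin gene, measured 574, 358, 354 and 391 CPM in E4/4 PBS females and 379, 361, 368 and 390.1 CPM in males. In E3/3 PBS mice it measured 397, 579, 533 and 480.1 CPM in females and 512, 517, 467 and 494 CPM in males. Of the 8 E4/4 PBS mice, 7 were below every E3/3 PBS mouse, and the exception was female replicate 1, near the top of the E3/3 PBS range. The means were 397 ± 73.1 in E4/4 PBS and 497 ± 53.2 CPM in E3/3 PBS mice (SD, n = 8 each), and the log2 change was −0.33 (SE 0.0990, edgeR adjusted p = 0.0183). Without that library the change was −0.42 (edgeR adjusted p = 0.00100). The call was lost without E4/4 PBS female replicate 2 or 3 or without E3/3 PBS female replicate 2, with adjusted p up to 0.0603 in edgeR.

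Lrp1, the large endocytic APOE receptor, measured 508, 421, 408 and 412 CPM in E4/4 PBS females and 452, 389, 403 and 399.99 CPM in males. In E3/3 PBS mice it measured 435, 542, 494 and 499 CPM in females and 497, 481, 459.6 and 475 CPM in males. Here 6 of 8 E4/4 PBS mice were below every E3/3 PBS mouse, and female replicate 1 was again the highest of its group. The means were 424 ± 38.8 in E4/4 PBS and 485 ± 31.4 CPM in E3/3 PBS mice (SD, n = 8 each), and the log2 change was −0.19 (SE 0.0615, edgeR adjusted p = 0.0238). It was called without 24 of the 32 libraries in turn and lost without E4/4 PBS female replicates 2, 3 or 4, E4/4 PBS male replicates 3 or 4, E3/3 PBS female replicates 2 or 3, or E3/3 PBS male replicate 1. The highest edgeR adjusted p among these was 0.0823.

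Sorl1, the sorting receptor of amyloid precursor protein, resembled Sort1 but did not pass. It measured 407, 213, 213 and 241 CPM in E4/4 PBS females and 219, 199.98, 219.7 and 247 CPM in males. In E3/3 PBS mice it measured 217, 350.1, 329 and 311 CPM in females and 286, 289, 322 and 299 CPM in males. The means were 245 ± 67.2 in E4/4 PBS and 300.5 ± 39.9 CPM in E3/3 PBS mice (SD, n = 8 each), and the log2 change was −0.30 (SE 0.128, edgeR adjusted p = 0.0941). Female replicate 1 of E4/4 PBS was above every E3/3 PBS mouse, and female replicate 1 of E3/3 PBS was below the E4/4 PBS median of 219 CPM. Without E4/4 PBS female replicate 1 the change was −0.44 (edgeR adjusted p = 0.00440), and Sorl1 was also called without E3/3 PBS female replicate 1.

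Of the remaining receptors, Lrp4 averaged 40.5 ± 3.41 CPM in E4/4 PBS and 45.2 ± 5.28 CPM in E3/3 PBS mice (log2 change −0.16, edgeR adjusted p = 0.125). Lrp8 averaged 109.8 ± 20.4 CPM in E4/4 PBS and 99.99 ± 14.5 CPM in E3/3 PBS mice (log2 change 0.14, edgeR adjusted p = 0.290). Scarb1 averaged 27.99 ± 3.33 CPM in E4/4 PBS and 30.8 ± 4.39 CPM in E3/3 PBS mice (log2 change −0.14, edgeR adjusted p = 0.266). None of these 3 passed the test over all genes, and their 95% intervals of the log2 change ran from −0.31 to −0.0094 for Lrp4, −0.04 to 0.32 for Lrp8 and −0.31 to 0.04 for Scarb1. At an unadjusted p below 0.05, 6 of the 8 receptors passed.

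**Figure D2:**
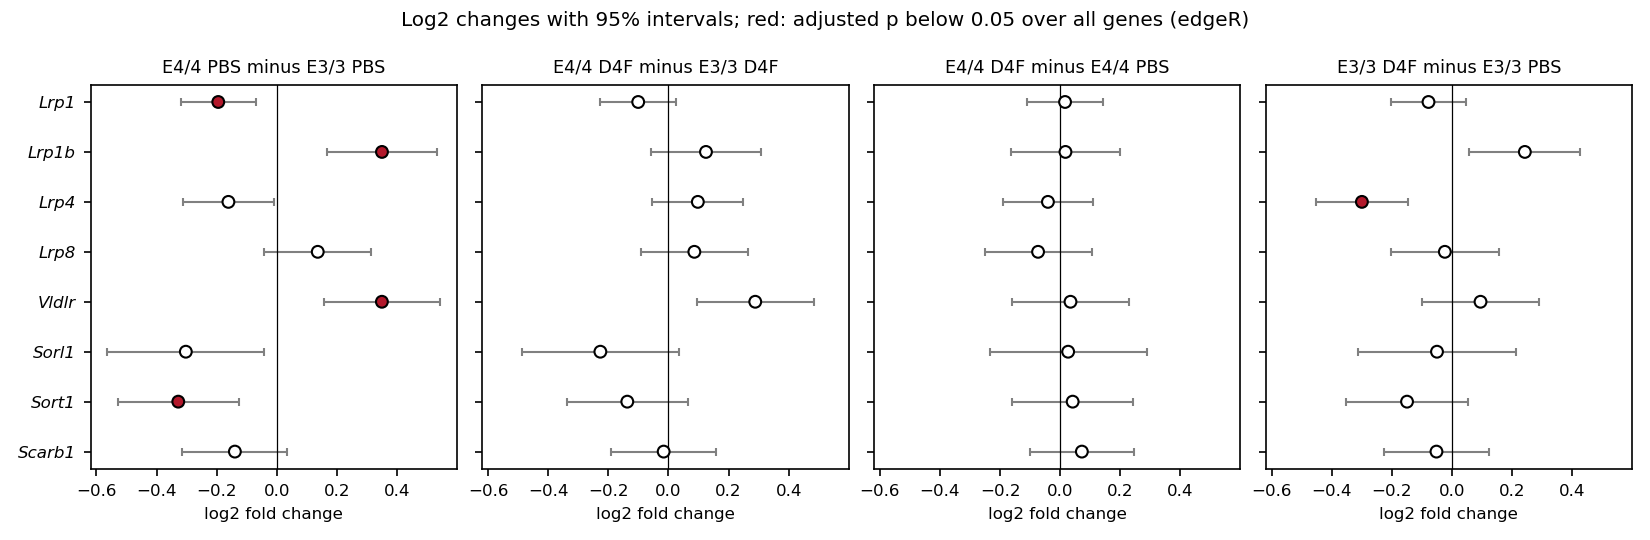
Log2 fold change of each receptor gene (x axis, first-named group minus the other) with its 95% interval in 4 comparisons of 8 against 8 mice. Red points passed the test over all genes: Vldlr (0.35), Lrp1b (0.35), Sort1 (−0.33) and Lrp1 (−0.19) in E4/4 PBS minus E3/3 PBS mice, and Lrp4 (−0.30) in E3/3 D4F minus E3/3 PBS mice.

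The genotype change of a gene moved with its base composition. Across 19207 genes, Pearson's r between log2 change and the GC content of the transcript was −0.306 (genes are not independent replicates). Among genes that averaged at least 1 on the log2 CPM scale, the median change was 0.24 for 30 to 40% GC and −0.21 for 60 to 70%. Lrp1b (43.5% GC) and Vldlr (43.8%) lay among the genes of low GC content and Lrp1 (57.9%) among those of high GC content. Sort1 (51.0%) and Sorl1 (50.7%) lay between. Lrp1b and Vldlr (0.35 each) were above the upper quartile of genes in their GC bin, 0.24. Sort1 (−0.33) and Sorl1 (−0.30) were below the lower quartile of theirs, −0.17, and Lrp1 lay between its quartiles. With the GC and length trends removed, Lrp1b (0.24, edgeR adjusted p = 0.0178) and Sort1 (−0.28, edgeR adjusted p = 0.0284) stayed called. Lrp1 was then at −0.05 (edgeR adjusted p = 0.573) and Vldlr at 0.25 (edgeR adjusted p = 0.0940), neither called. With the depth class as a term, none of the 8 was called (edgeR). The changes were then 0.29 for Lrp1b, 0.28 for Vldlr, −0.30 for Sort1 and −0.18 for Lrp1, with adjusted p of 0.0766, 0.116, 0.101 and 0.117. Within the higher depth class, the log2 difference between 7 E4/4 PBS and 2 E3/3 PBS libraries was 0.27 for Vldlr, 0.09 for Lrp1b, −0.35 for Sort1, −0.22 for Lrp1 and −0.52 for Sorl1. The lower class set the single E4/4 PBS library, female replicate 1, against 6 E3/3 PBS libraries, and the differences were 0.06 for Vldlr, 0.36 for Lrp1b, 0.19 for Sort1, 0.06 for Lrp1 and 0.48 for Sorl1. The sign of all 8 changes was the same in the 12 alternative analyses over all libraries or the higher class. Over these 12, the adjusted p (edgeR, DESeq2 or limma) ran from 0.00240 to 0.725 for Lrp1b, 0.00391 to 0.293 for Vldlr, 0.0102 to 0.185 for Sort1 and 0.0128 to 0.595 for Lrp1.

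**Figure D3:**
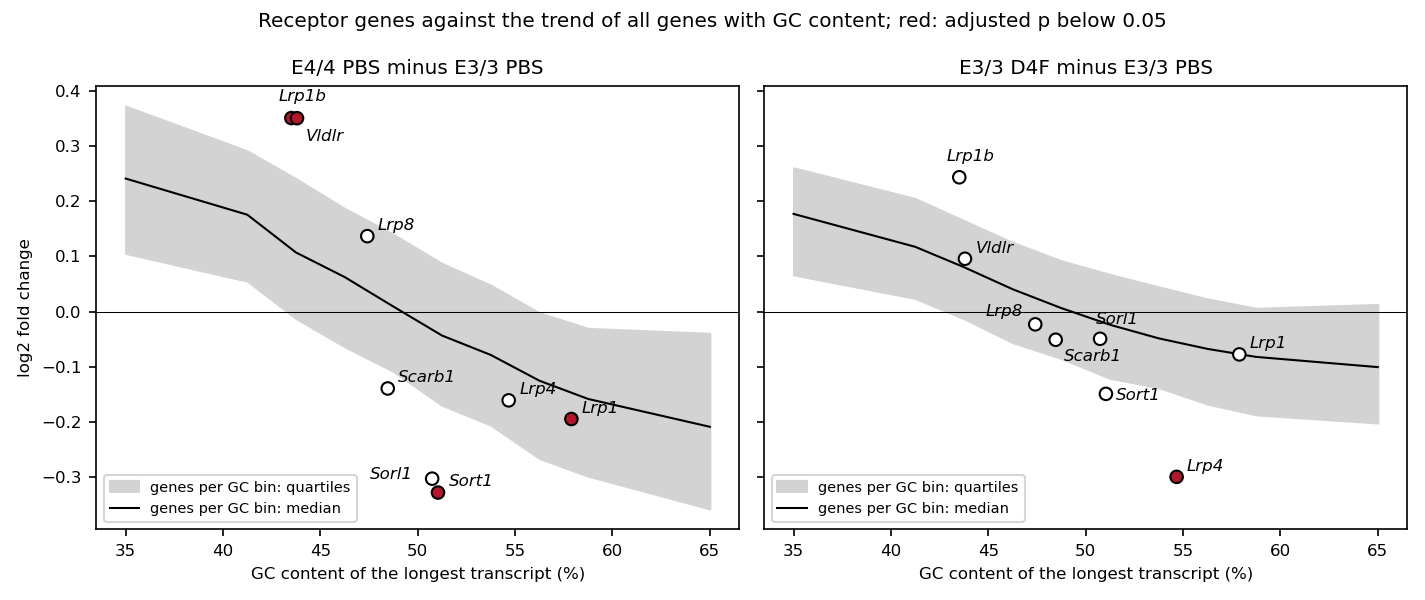
Log2 fold change of each receptor gene (y axis) against the GC content of its longest transcript in percent (x axis). The panels show E4/4 PBS minus E3/3 PBS (left) and E3/3 D4F minus E3/3 PBS (right). The line is the median and grey the quartiles, in bins of GC content, of genes that averaged at least 1 on the log2 CPM scale. Lrp1 lies close to the line in both panels. In the left panel, Vldlr and Lrp1b lie above the quartiles and Sort1, Sorl1 and Scarb1 below them. In the right panel, Lrp1b lies above the quartiles and Lrp4 and Sort1 below them. Red marks an adjusted p below 0.05.

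Markers of brain cell types also differed between E4/4 PBS and E3/3 PBS mice. Of 8 neuron markers, 4 were lower (Rbfox3, Stmn2, Tubb3 and Slc17a7) and Gad1 was higher. The neuron markers summed to 5820 to 8647 CPM in E4/4 PBS and 5747 to 8475 CPM in E3/3 PBS mice. Of 8 oligodendrocyte markers, 5 were higher, and they summed to 5436 to 7158 CPM in E4/4 PBS and 5120 to 6171 CPM in E3/3 PBS mice. Of 8 astrocyte markers 1 was higher and 2 were lower, and of 8 endothelial markers 2 were higher and 2 were lower. None of the markers of these 4 lists was at 0 in any library. All 5 blood markers were lower, summing to 3.66 to 14.998 CPM in E4/4 PBS and 7.66 to 113 CPM in E3/3 PBS mice. Of markers of other regions, 1 of choroid plexus, 2 of the olfactory bulb and 2 of the hypothalamus were higher, and none of the striatum or cerebellum was called. The part of these differences in the receptor changes was not tested.

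Across the 32 mice, 3 receptors varied closely with the summed neuron markers. Here and below, Pearson's r was taken on log2 values of receptors and marker sums. Vldlr was lower where neuron markers were higher, with Pearson's r of −0.830 and Spearman's rho of −0.838. Sorl1 was higher where they were higher (r = 0.816, rho = 0.788), and so was Sort1 (r = 0.781, rho = 0.768). All 6 of these values had a permutation p of 1e-05, the smallest that 100000 permutations can give, and an adjusted p of at most 0.000133 for r over 40 relations of 8 receptors with 5 marker sums. Without the 2 mice farthest from the median, r was −0.847 for Vldlr, 0.833 for Sorl1 and 0.798 for Sort1. Within the 8 groups, that is with each group's mean subtracted, r was −0.828, 0.844 and 0.788 for the same genes. All values of a mouse come from 1 library, and neuron and other markers share its total.

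**Figure D4:**
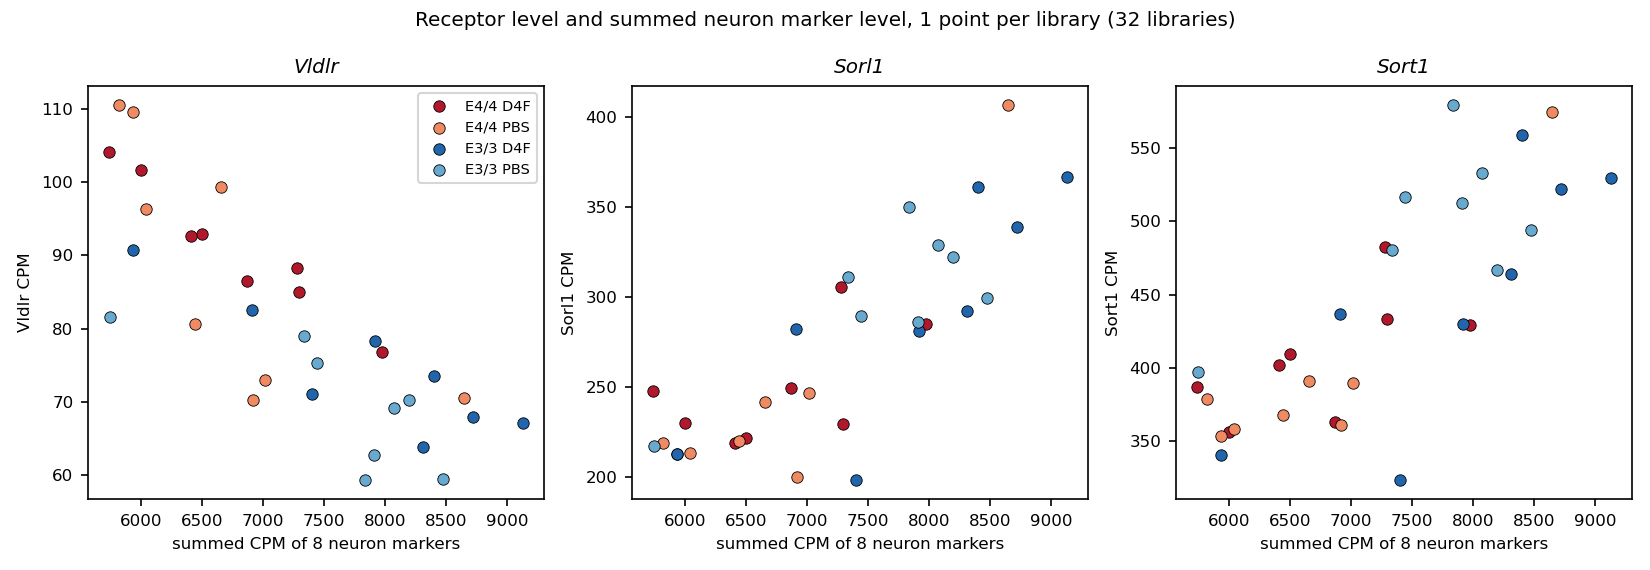
CPM of Vldlr, Sorl1 and Sort1 (y axes, not from 0) against the summed CPM of 8 neuron markers (x axis), 1 point per mouse and coloured by combination of genotype and treatment. Vldlr falls along the x axis (r = −0.830), and Sorl1 (r = 0.816) and Sort1 (r = 0.781) climb along it, with r taken on log2 values. The E4/4 PBS mouse with 8647 CPM of neuron markers has the highest Sorl1 level.

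Regional markers varied between brains as well. The mouse with the highest neuron sum (9134 CPM) had 454 CPM of striatal markers, and the mouse with the lowest (5735 CPM) had 1606 CPM. Whether the relations with neuron and with striatal markers are separate was not tested. Lrp8 was lower where the 6 striatal markers were higher (r = −0.609, permutation p = 0.00027, adjusted p = 0.0018; rho = −0.610, permutation p = 0.00034), and within the groups r was −0.751. Without the 2 mice farthest from the median, r for Lrp8 was −0.538. Vldlr was higher where they were higher (r = 0.641, permutation p = 6e-05, adjusted p = 0.0006; rho = 0.664, permutation p = 5e-05), with r of 0.642 without the 2 farthest mice. Sorl1 (r = −0.602, rho = −0.584, adjusted permutation p = 0.0018 for r) and Sort1 (r = −0.581, rho = −0.577, adjusted permutation p = 0.0033 for r) were lower where they were higher, with r of −0.661 and −0.613 without the 2 farthest mice. The striatal sum ranged from 399.7 to 1817 CPM in E4/4 D4F, 543 to 1799.9 CPM in E4/4 PBS, 442 to 1689 CPM in E3/3 D4F and 324 to 1827 CPM in E3/3 PBS mice, so these groups overlapped over nearly the whole range. Sort1 was higher where the astrocyte markers were higher (r = 0.571, rho = 0.521, adjusted permutation p = 0.00246 for r), with r of 0.423 without the 2 farthest mice and 0.694 within groups. Lrp4 was related to the astrocyte markers by r (0.536, permutation p = 0.00191, adjusted p = 0.00849). Its rho of 0.352 (permutation p = 0.0498) did not pass after adjustment (adjusted permutation p = 0.124). For this relation r was 0.258 without the 2 farthest mice and 0.285 within groups. Across all mice, weaker relations that passed for r were Lrp1 with neuron (0.446) and astrocyte markers (0.498), and Lrp4 with striatal markers (−0.460). Scarb1 also passed with neuron (−0.424) and striatal markers (0.454). The adjusted permutation p of these relations ran from 0.0126 to 0.0451. Their rho was 0.462, 0.438, −0.402, −0.334 and 0.521, in the same order. Without the 2 farthest mice, r was 0.469, 0.274, −0.312, −0.325 and 0.574. Within groups, r was 0.235, 0.658, −0.618, −0.671 and 0.557. Except for Lrp1 with neuron markers, r was thus larger in size within groups than across all mice.

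Of the 28 pairs of receptors, Sorl1 and Sort1 had the highest correlation. Sorl1 and Sort1 varied together across mice (r = 0.926 and rho = 0.909, each with a permutation p of 1e-05, the smallest possible; adjusted p = 0.00014 over 28 pairs), and r was 0.937 within groups and 0.916 without the 2 farthest mice. Lrp1 joined them, with r of 0.810 to Sort1 and 0.719 to Sorl1 (adjusted permutation p = 0.00014 and 0.000187; rho = 0.775 and 0.684). Without the 2 farthest mice these were 0.760 and 0.668, and within groups 0.697 and 0.607. Vldlr ran against Sort1 (r = −0.644, rho = −0.648, adjusted permutation p = 0.00112 for r) and Sorl1 (r = −0.603, rho = −0.598, adjusted permutation p = 0.00174 for r). Within groups these were −0.544 and −0.567, and without the 2 farthest mice −0.615 and −0.560. Vldlr and Lrp1b, the receptors that were higher in E4/4 PBS mice, had r of 0.564 (rho = 0.579, adjusted permutation p = 0.00303 for r), 0.604 without the 2 farthest mice and 0.342 within groups. Weaker pairs that also passed for r were Lrp1b with Lrp4 (r = −0.449, rho = −0.360, adjusted permutation p = 0.0420), Lrp8 with Scarb1 (r = −0.421, rho = −0.352, adjusted permutation p = 0.0454), and Lrp4 with Lrp1 and with Sort1 (r = 0.426 and rho = 0.321 each, adjusted permutation p = 0.0454). Without the 2 farthest mice these 4 values of r were −0.373, −0.287, 0.230 and 0.286, and within groups −0.286, −0.450, 0.440 and 0.384. None of the 4 passed for rho after adjustment (adjusted permutation p from 0.113 to 0.148). Lrp4 with Lrp8 passed for rho (0.465, adjusted permutation p = 0.0322) and not for r (0.412, adjusted permutation p = 0.0514), and r was 0.623 within groups. Vldlr with Scarb1 passed for neither (r = 0.265), and r was 0.610 within groups.

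Other genes followed the receptors more or less closely. Among 14044 genes that averaged at least 1 on the log2 CPM scale over 32 libraries, the closest by Pearson's r of log2 CPM to Sort1 included Ppp2r2c (0.967) and Gfod1 (0.957). The closest to Sorl1 were Herc3 (0.951), D430041D05Rik (0.949) and Ptk2 (0.946). For Lrp1b they were Arid4b (0.922), Mdga2 (0.914) and Zmym2 (0.913), and for Vldlr they were Sesn3 (0.897), S100pbp (0.893) and Alcam (0.887). The sorting receptors thus had the closest neighbours of the 8. Lrp1 was most like Foxk1 (0.887), Ctif (0.886) and Epb41l1 (0.879), Scarb1 like C2cd2l (0.865), Wscd2 (0.83) and Itm2c (0.800), and Lrp8 like Ppfia2 (0.850), Cacna1d (0.847) and Nrip3 (0.833). Lrp4 had no close neighbour, with Mindy1 (0.712), Micall1 (0.700) and Sema4c (0.698) first.

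The second comparison asked what D4F did in E4/4 mice. None of the 8 receptors was called in E4/4 D4F against E4/4 PBS mice, and none of 20298 genes was called (0% of all genes in edgeR, 0 in DESeq2 and 0 in limma), while 382 genes and 0 receptors had an unadjusted p below 0.05. The log2 changes of the receptors ran from −0.07 for Lrp8 to 0.07 for Scarb1. Vldlr averaged 91.0 ± 8.94 CPM in E4/4 D4F and 88.8 ± 17.2 CPM in E4/4 PBS mice (SD, n = 8 each), with a 95% interval of the log2 change from −0.16 to 0.23. Lrp1b averaged 31.4 ± 3.68 CPM in E4/4 D4F and 30.9 ± 3.24 CPM in E4/4 PBS mice, with an interval from −0.16 to 0.20. Lrp1 averaged 429 ± 28.03 CPM in E4/4 D4F and 424 ± 38.8 CPM in E4/4 PBS mice, with an interval from −0.11 to 0.14. Sort1 averaged 408 ± 40.9 CPM in E4/4 D4F and 397 ± 73.1 CPM in E4/4 PBS mice, with an interval from −0.16 to 0.24. The widest interval was that of Sorl1, from −0.23 to 0.29.

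In E3/3 D4F against E3/3 PBS mice, 1 receptor was called. The lower depth class held 2 of 8 E3/3 D4F and 6 of 8 E3/3 PBS libraries, so D4F and depth run together in this comparison. Lrp4, the agrin receptor, was at 0.813-fold of its E3/3 PBS level in E3/3 D4F mice. Of the 8 receptors, 1 was lower, beside 1.44% of all genes, and 0 were higher, beside 1.81%. In either direction, 3.25% of all genes were called. Lrp4 measured 38.4, 39.96, 38.6 and 37.9 CPM in E3/3 D4F females and 29.3, 38.4, 35.2 and 36.2 CPM in males, against 42.1, 49.96, 44.7 and 48.5 CPM in E3/3 PBS females and 54.6, 39.3, 40.8 and 41.9 CPM in males. Of the 8 D4F mice, 7 were below every PBS mouse, and the groups met between 39.3 and 39.96 CPM. The means were 36.8 ± 3.35 in E3/3 D4F and 45.2 ± 5.28 CPM in E3/3 PBS mice (SD, n = 8 each), and the log2 change was −0.30 (SE 0.0745, edgeR adjusted p = 0.0257). It was −0.25 in females and −0.34 in males, and −0.44 among libraries of the lower depth class (2 D4F against 6 PBS) and −0.24 among those of the higher class (6 against 2).

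The Lrp4 call was lost with the depth class as a term (log2 change −0.32, edgeR adjusted p = 0.145) and was kept with the GC and length trends removed (−0.25, edgeR adjusted p = 0.0469). The call was also lost without E3/3 D4F female replicate 1 or 3, E3/3 D4F male replicate 1, E3/3 PBS female replicate 2 or E3/3 PBS male replicate 1. The last of these had the highest Lrp4 level of all 32 libraries, and without it the change was −0.24 (edgeR adjusted p = 0.0873). In the same mice 2 of 8 astrocyte markers (Slc1a3 and Aldoc) and 4 of 8 endothelial markers (Pecam1, Flt1, Cdh5 and Kdr) were lower. The astrocyte markers summed to 2938 to 4503 CPM in E3/3 D4F and 3879 to 4986 CPM in E3/3 PBS mice, and the endothelial markers to 211 to 268 CPM in E3/3 D4F and 228 to 322 CPM in E3/3 PBS mice. Their part in the Lrp4 change was not tested. Over the 12 alternatives the adjusted p of Lrp4 (edgeR, DESeq2 or limma) ran from 0.00971 to 1, and its change stayed below 0 in each.

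**Figure D5:**
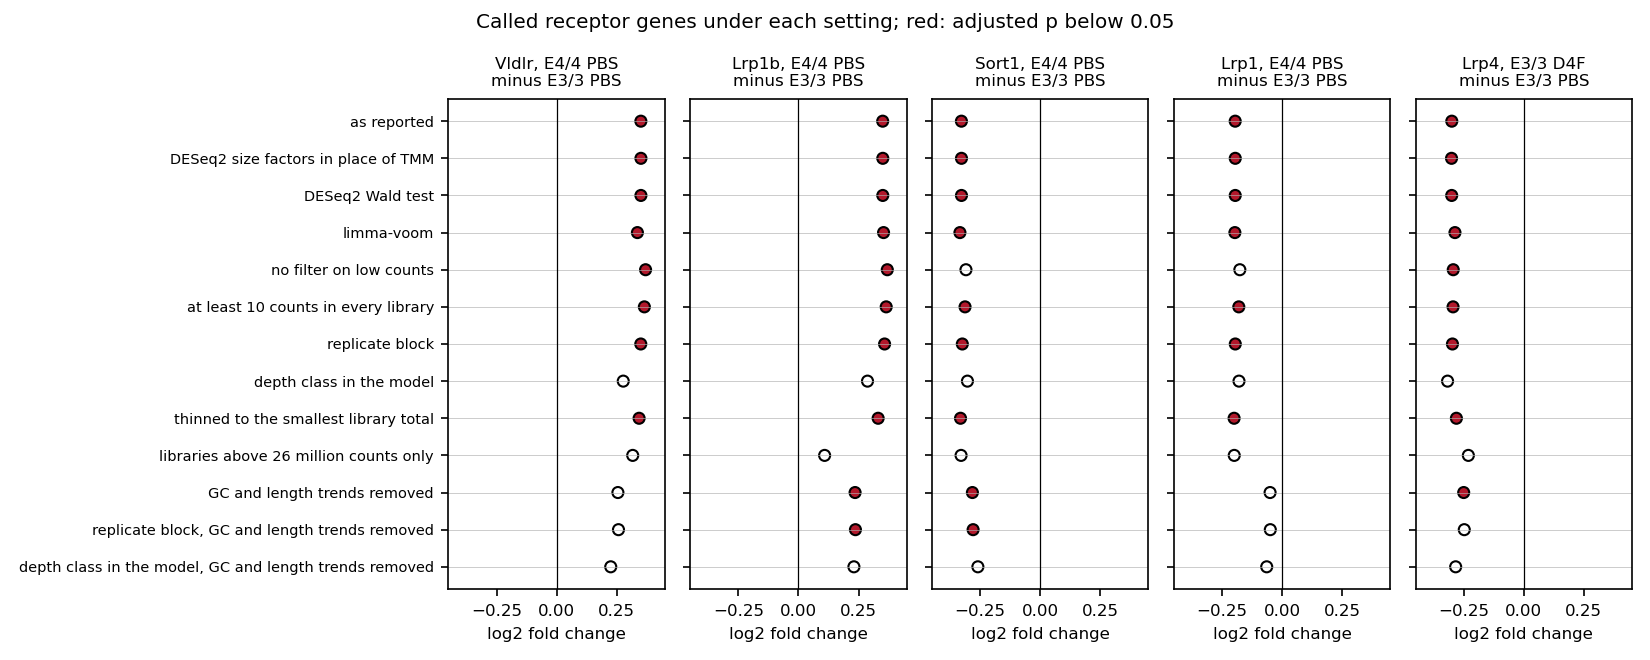
Log2 fold change (x axis) of the 5 called receptor changes as reported and under 12 alternative analyses (rows), with red for an adjusted p below 0.05 and open circles otherwise. The values stay on 1 side of 0 in every row, and 0 of the 4 genotype changes and 0 of 1 D4F changes are red with the depth class in the model.

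None of the other 7 receptors was called for D4F in E3/3 mice. Lrp1b came closest, at 28.8 ± 3.39 CPM in E3/3 D4F and 24.3 ± 4.95 CPM in E3/3 PBS mice (log2 change 0.24, edgeR adjusted p = 0.122). It was called without E3/3 PBS female replicate 4 or male replicate 3, with edgeR adjusted p down to 0.0259. In libraries of the higher depth class its log2 difference was −0.04, between 6 D4F and 2 PBS libraries. Sort1 averaged 451 ± 86.2 CPM in E3/3 D4F and 497 ± 53.2 CPM in E3/3 PBS mice (log2 change −0.15, edgeR adjusted p = 0.442). Its log2 difference was 0.0017 in females and −0.32 in males, and the sexes were not shown to differ (edgeR adjusted p = 0.976). The other 5 changes lay between −0.08 and 0.10.

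Whether D4F acted differently on the receptors in the 2 genotypes was tested as an interaction. No receptor and no gene was called (0% of all genes in edgeR, 0 in DESeq2 and 0 in limma), and 2113 genes and 1 receptor had an unadjusted p below 0.05. That receptor was Lrp4, whose D4F effect was −0.04 in E4/4 and −0.30 in E3/3 mice, a difference of 0.26 on the log2 scale (SE 0.105, edgeR adjusted p = 0.380). The Lrp4 change in E3/3 mice is therefore not shown to differ from that in E4/4 mice. For Lrp1b the difference was −0.23 (edgeR adjusted p = 0.552), and for the remaining receptors it lay between −0.06 and 0.19.

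Among mice on D4F, no receptor passed the test between the genotypes. In E4/4 D4F against E3/3 D4F mice 0 of 8 receptors and 1 of 20298 genes were called (0.00493% of all genes, edgeR), while DESeq2 called 175 genes, limma 0 genes, and neither tool a receptor. Vldlr was the only receptor with an unadjusted p below 0.05. It measured 104, 102, 86.5 and 88.3 CPM in E4/4 D4F females and 76.8, 93.0, 85.1 and 92.7 CPM in males, against 82.5, 73.5, 68.0 and 63.9 CPM in E3/3 D4F females and 71.1, 67.1, 78.4 and 90.7 CPM in males. All 8 E4/4 D4F mice were above the E3/3 D4F median of 72.3 CPM and 4 of 8 were above every E3/3 D4F mouse, and its log2 change was 0.29 (SE 0.0950, edgeR adjusted p = 0.181). The Vldlr change was 0.35 in PBS mice and was not shown to differ under D4F (interaction −0.06, edgeR adjusted p = 0.925). Sorl1 averaged 248 ± 31.4 CPM in E4/4 D4F and 292 ± 63.2 CPM in E3/3 D4F mice (log2 change −0.23, edgeR adjusted p = 0.439). Sort1 averaged 408 ± 40.9 CPM in E4/4 D4F and 451 ± 86.2 CPM in E3/3 D4F mice (−0.14, edgeR adjusted p = 0.557). The log2 difference of Sort1 was −0.32 in females and 0.07 in males, and that of Sorl1 was −0.30 and −0.11. Whether these differ between the sexes was not tested.

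E4/4 mice on D4F were also set against E3/3 PBS mice, whose libraries the first comparison also uses. Vldlr (0.38, edgeR adjusted p = 0.00524) and Lrp1b (0.37, edgeR adjusted p = 0.00492) were higher in E4/4 D4F mice, beside 9.54% of all genes. Lrp1 (−0.18, edgeR adjusted p = 0.0400) and Sort1 (−0.29, edgeR adjusted p = 0.0405) were lower, beside 9.80% of all genes, and 19.3% of all genes were called in either direction. For Vldlr 7 of 8 E4/4 D4F mice were above every E3/3 PBS mouse, and for Sort1 8 of 8 were below the E3/3 PBS median of 503 CPM. The changes of Vldlr and Lrp1b were called without any 1 library in turn, whereas Lrp1 was called in 13 and Sort1 in 14 of those 32 analyses, with edgeR adjusted p up to 0.123 and 0.117. With the GC and length trends removed only Lrp1b stayed called (0.24, edgeR adjusted p = 0.0205), and Lrp1 was at −0.03 (edgeR adjusted p = 0.788). With the depth class as a term Vldlr and Lrp1b stayed called (0.33 and 0.32, edgeR adjusted p = 0.0402 and 0.0349), and with both corrections, or among libraries of the higher depth class alone, none of the 8 receptors was called in edgeR. Set side by side, the log2 changes from E3/3 PBS were 0.38 in E4/4 D4F and 0.35 in E4/4 PBS mice for Vldlr, 0.37 and 0.35 for Lrp1b, −0.29 and −0.33 for Sort1, and −0.18 and −0.19 for Lrp1, in the same order of groups.

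Sex made no receptor pass the test. In females against males, 15 genes were called (0.0739% of all genes in edgeR, 0.0394% higher and 0.0345% lower) and 0 of 8 receptors, with 0 receptors at an unadjusted p below 0.05 and none called by DESeq2 or limma. Sorl1 had the largest change, 0.17 higher in females (SE 0.0903, edgeR adjusted p = 0.914), and Lrp8 was 0.11 lower in females on the log2 scale (−0.11, SE 0.0619, edgeR adjusted p = 0.914). The differences between the sexes in the genotype effect in PBS mice and in the D4F effect in E4/4 or E3/3 mice were called for 0 receptors and 0 genes by edgeR, DESeq2 and limma, and 1090, 526 and 738 genes had an unadjusted p below 0.05. The largest of these differences was that of Lrp8 for D4F in E3/3 mice, 0.30 on the log2 scale (SE 0.175, edgeR adjusted p = 0.976). Lrp8 averaged 100.1 ± 6.51 CPM in E3/3 D4F females and 91.5 ± 13.4 CPM in E3/3 PBS females, and 96.0 ± 8.36 CPM in E3/3 D4F males and 108 ± 10.98 CPM in E3/3 PBS males (SD, n = 4 each).

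The genes around the receptors were counted in 9 lists for E4/4 PBS against E3/3 PBS mice, beside 9.89% of all genes higher, 10.5% lower and a median log2 change of 0.02. Of 10 tested further genes of the LDL receptor family, 3 were lower, Lrp3 (−0.34), the Wnt co-receptor gene Lrp5 (−0.46) and Ldlrad4 (−0.49), and none was higher (median 0.01). Of 9 relatives of the sorting and scavenger receptors only Sorcs3, another VPS10 receptor, was called (−0.29, median of the list 0.06). Of 17 ligands, A2m, the protease inhibitor alpha-2-macroglobulin that LRP1 clears, was higher (0.82), and Calr, the chaperone calreticulin that can bind LRP1 at the cell surface, was lower (−0.40, median of the list 0.07). Of 15 chaperones, adaptors and regulators of the receptors, Mapk8ip2 (−0.27), Mapk8ip1 (−0.17) and Apbb1 (−0.34), which encode cytoplasmic adaptor proteins, were lower (median −0.03). Of 15 genes of endosomal sorting, Pacs1 (−0.40) and Gga1 (−0.19), which encode sorting adaptors, were lower, and Snx6 (0.19) and Vps29 (0.14), which belong to the retromer machinery, were higher (median −0.0026).

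Downstream of the reelin receptors, 6 of 15 genes were lower, beside 10.5% of all genes, and 1 was higher, beside 9.89% (median −0.08). This list and the others were chosen with earlier results of these data known, so the counts are a description and not a test. The lower genes were Limk1 and Rapgef1, named after their values were seen (−0.34 and −0.23), Cdk5r2 (−0.63), an activator of the kinase CDK5, Pik3r2 (−0.40), a regulatory subunit of phosphoinositide 3-kinase, and the kinases Akt1 (−0.22) and Src (−0.23), and the higher gene was the adaptor Crk (0.26), named after its value was seen. Of 13 genes of receptor shedding and cleavage, 2 were higher and 3 lower (median 0.02). Among the gamma-secretase genes, Psen2 (−0.26) and Ncstn (−0.21) were lower and Aph1b (0.34) was higher, as was the sheddase gene Adam17 (0.19), named after its value was seen. Of 6 genes of agrin and MuSK signalling, around Lrp4, none was called in edgeR (median 0.10). Of 12 tested partners of SCARB1 in HDL metabolism, Abca1 (0.66), which loads cholesterol onto APOE and APOA1, and Gramd1c (0.62) were higher and Gramd1b (−0.23) was lower (median −0.03). Among the genes named from these lists, Abca1, Aph1b, Calr, Cdk5r2, Mapk8ip2, Pacs1, Pik3r2 and Sorcs3 were also called both with the GC and length trends removed and with the depth class as a term.

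The other comparisons differed in how many genes they called in all. In E4/4 D4F against E3/3 PBS mice, where 19.3% of all genes were called, the reelin list held 1 higher and 6 lower genes of 15. In that comparison the further LDL receptor family genes held 0 and 3 of 10, the chaperones and adaptors 0 and 3 of 15, and the endosomal sorting genes 2 and 2 of 15. The ligands held 1 and 1 of 17, the shedding and cleavage genes 1 and 2 of 13, the HDL partners 2 and 1 of 12, and the sorting receptor relatives and the agrin list held none called in edgeR. For D4F in E3/3 mice, where 3.25% of all genes were called, Lrp5 (−0.47, edgeR adjusted p = 0.0268) and Calr (−0.35, edgeR adjusted p = 0.0147) were lower and the adaptor gene Apbb3 (0.19, edgeR adjusted p = 0.0240) was higher, and no other gene of the 9 lists was called. For D4F in E4/4 mice and for genotype in D4F mice, no gene of the 9 lists was called in edgeR, beside 0% and 0.00493% of all genes.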

How the data were processed

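Brain RNA of 32 mice was sequenced from stranded mRNA libraries, per the labels' protocols. The deposited table holds raw counts per gene, which the authors made with Trimmomatic, HISAT2 and featureCounts on GRCm38, per the submitters' processing notes. The counting's annotation and strand setting, its unit (reads or pairs) and the versions of these programs were not given in the sources used here.

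Counts were tested with edgeR 4.0.16 (R 4.3.3): filterByExpr (minimum count 10, minimum total 15), TMM scaling, a quasi-likelihood fit of all 8 groups without a replicate block, and Benjamini-Hochberg adjustment over 20298 genes at 0.05. CPM values used TMM library sizes, and log2 CPM a prior count of 2. Alternatives used DESeq2 1.42.0, limma 3.58.1, other filters, thinned counts, depth class, GC and length trends, a replicate block and leaving out each library. Of these steps, only the edgeR quasi-likelihood fit was tested on simulated data. Spread between mice is what the p-values measure.

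The members and gene lists were chosen with earlier results of these data known. The text names all 8 receptors, up to 4 called genes per related list by smallest p, and the 3 genes most correlated with each receptor. Further genes are marked where they were named after their values were seen. Some genes that this rule names are not reported here. Gene positions and GC content came from the GENCODE M21 annotation of GRCm38, which gave a GC value for 94.8% of tested genes. The table had 0 unused sample columns. The labels do not say that replicate numbers pair the mice, and of 32 same-number pairs, 4 correlated above 0.1.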

Additional observations from a re-analysis of the deposited data

Results flagged for a closer look

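In 5 of 64 groups of 4 mice, 1 mouse lay far from the other 3, by a test that flags about 1 in 20 groups by chance. Of these 5, 3 belong to replicate 1 of the E4/4 PBS females. That mouse had 508 CPM of Lrp1, against 408 to 421 CPM in the other 3 females of its group. It had 407 CPM of Sorl1, against 213 to 241 CPM, and 574 CPM of Sort1, against 354 to 391 CPM. Its neuron markers summed to 8647 CPM, against 5933 to 6658 CPM in the other 3. Its striatal markers summed to 574 CPM, against 1182 to 1676 CPM in the other 3. Its library was the only one of the lower depth class among E4/4 PBS mice. The part of any of these in its receptor values was not tested. Without it, 5 of 8 receptors were called between E4/4 PBS and E3/3 PBS mice in edgeR, with Sorl1 the addition.

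Replicate 1 of the E4/4 D4F males had 285 CPM of Sorl1, against 219 to 229 CPM in the other 3 males of its group. Its striatal markers summed to 399.7 CPM, against 1032.5 to 1817 CPM in the other 3. Replicate 1 of the E3/3 PBS males had 54.6 CPM of Lrp4, against 39.3 to 41.9 CPM in the other 3. Its striatal markers summed to 324 CPM, against 747 to 1334 CPM in the other 3. The part of the striatal markers in these values was not tested.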

How the results depend on the processing

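The number of receptors called between E4/4 PBS and E3/3 PBS mice, 4 as reported, was 4 with DESeq2, limma, DESeq2 size factors, a stricter filter, thinned libraries or the replicate block. It was 2 without a filter on low counts (Sort1 and Lrp1 lost), 2 with the GC and length trends removed (Vldlr and Lrp1 lost) and 2 with the replicate block on top of that. It was 0 with the depth class in the model, 0 with depth class and trends together (an alternative chosen after seeing the data) and 0 among libraries above 26 M counts, where 2 of 8 E3/3 PBS libraries remained. For D4F in E3/3 mice the count of 1 was 0 with the depth class, 0 with depth class and trends, 0 with the replicate block and trends (Lrp4 −0.25, edgeR adjusted p = 0.0585), 0 above 26 M counts, and 1 in the other alternatives. For E4/4 D4F against E3/3 PBS mice the count of 4 was 5 with DESeq2, 3 with the replicate block, 2 without a filter, 2 with the depth class, 1 with the trends removed, 1 with block and trends, 0 with depth class and trends, and 0 above 26 M counts. The causes were not tested. Leaving out 1 library at a time gave 2 to 5, 0 to 2 and 2 to 5 called receptors in these 3 comparisons. In the other 7 comparisons the count was 0 throughout, and the 3 interactions with sex gave no value above 26 M counts. No called change turned its direction in any of these alternatives.

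Over all genes, the count called between E4/4 PBS and E3/3 PBS mice was 4137 as reported, 2664 with the trends removed, 1286 with the depth class, 523 with both and 42 above 26 M counts. For D4F in E3/3 mice it was 659 as reported, 1089 with DESeq2, 367 without a filter, 427 with block and trends, and 0 in each analysis by depth. For E4/4 D4F against E3/3 PBS mice it was 3927 as reported, 2049 with the trends removed, 1927 with block and trends, 1612 with the depth class, 470 with both and 0 above 26 M counts. For sex it was 15 as reported, 23 with DESeq2 and 7 with the stricter filter. For genotype in D4F mice it was 1 as reported, 175 with DESeq2, 27 with the depth class, and 0 to 4 otherwise.

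No label says that replicate numbers pair the mice, and correlations of same-numbered mice ran from −0.407 to 0.322. The replicate block removed 1 call, that of Sort1 in E4/4 D4F against E3/3 PBS mice (edgeR adjusted p = 0.0545). Depth limits the comparisons with E3/3 PBS, because 6 of its 8 libraries belong to the lower class.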
